A study of Rattus norvegicus with 2 samples.

Results

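The inorganic ion solute carriers are membrane proteins that move bicarbonate, chloride, sulfate, protons, sodium, calcium, phosphate and zinc, and they were followed here across uncultured rat lung and a cultured control. Members were all genes whose symbol in the platform annotation starts with Slc4a, Slc8a, Slc9a, Slc12a, Slc20a, Slc24a, Slc26a, Slc30a, Slc34a or Slc39a. The rule gave 70 of the 15615 genes named on the arrays, measured by 99 of 40012 probes. Of these, 67 encode carriers. The other 3, Slc4a1ap, Slc9a3r1 and Slc9a3r2, share a prefix but encode an adaptor and scaffold proteins. In the gene table of RefSeq, Slc24a6 is now Slc8b1, Slc9a3r1 is Nherf1 and Slc9a3r2 is Nherf2, and the older names are kept here.

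Each of 2 two-colour Agilent oligonucleotide arrays held total RNA of rat lung cells, taken without culture and untreated, in Cy3. The Cy5 channel of both arrays held mix1, a control RNA that combined rat bone marrow cells (BMC) with rat primary ear fibroblasts (PEF), each grown in culture with fetal bovine serum. The group lung therefore had 2 samples, replicates 1 and 2, and mix1 was a single control whose own spread was not measured. The sources used here give no strain, sex or age, nor whether the lung samples came from separate animals, so p-values reflect the spread of these 2 samples, which may be technical. A log2 ratio of 1 is a 2-fold higher signal in lung. No dyes were swapped, and a dye effect and a difference between the RNAs cannot be told apart.

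The deposited sign is likely lung over mix1 and was read so. No source states it outright. The reading rests on the wording of the series and on 6 lung genes (Sftpc, Sftpa1, Sftpb, Sftpd, Scgb1a1 and Ager), whose mean ratios lay between 3.94 and 7.02. Since these genes settled the sign, they support no difference, and the opposite sign would turn each direction given here. Of 7 measured ciliated cell markers, 6 were higher in lung (median 3.75), while all 10 fibroblast markers were lower, with a median of -6.45 and a range from -7.44 to -1.01. Of 8 macrophage markers, 4 were higher and 3 lower, from -2.51 to 2.59. In RNA of mixed cells, fewer cells of a type and less RNA per cell cannot be told apart, and this holds for every ratio given here.

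Carriers of the solute carrier superfamily use gradients rather than ATP to move their ions, and most work as exchangers or cotransporters. In the lung, sodium-phosphate cotransport is a known activity of alveolar type 2 cells, which recycle surfactant phospholipid, and chloride and bicarbonate exchange sets the pH and volume of the airway surface liquid. Zinc carriers work in opposed families: Slc39 proteins bring zinc into the cytosol, from outside or from organelles, and Slc30 proteins move it out of the cytosol.

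The members were spread widely in both directions. In limma's moderated test of the ratio against 0, with Benjamini-Hochberg adjustment over all genes, 30 members were higher and 27 lower in lung at an adjusted p under 0.05, and 13 did not pass. That test called 82.7% of all genes, 32.9% higher and 49.8% lower, so passing it says little about a single member. These shares are the comparison for each count of calls by family or list given here, and those with array medians subtracted follow below. A stricter description, at least 2-fold in the same direction in both arrays, held for 17 members higher and 14 lower, of the 70. Over all genes the same rule held for 16.5% higher and 15.8% lower, and in the members for 24.3% and 20%. The median ratio was 0.01 for the members and -0.23 for all genes. Subtracting the median of each array shifted the median gene up by 0.22 and the median of the members to 0.23. The test then called 35 members higher and 21 lower, against 40.6% and 38.0% of all genes, and the 2-fold rule held for 20 and 11 members, against 19.5% and 11.6%. The members that left the 2-fold lower group in that setting were Slc9a3, Slc39a3 and Slc39a11.

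**Figure D1:**
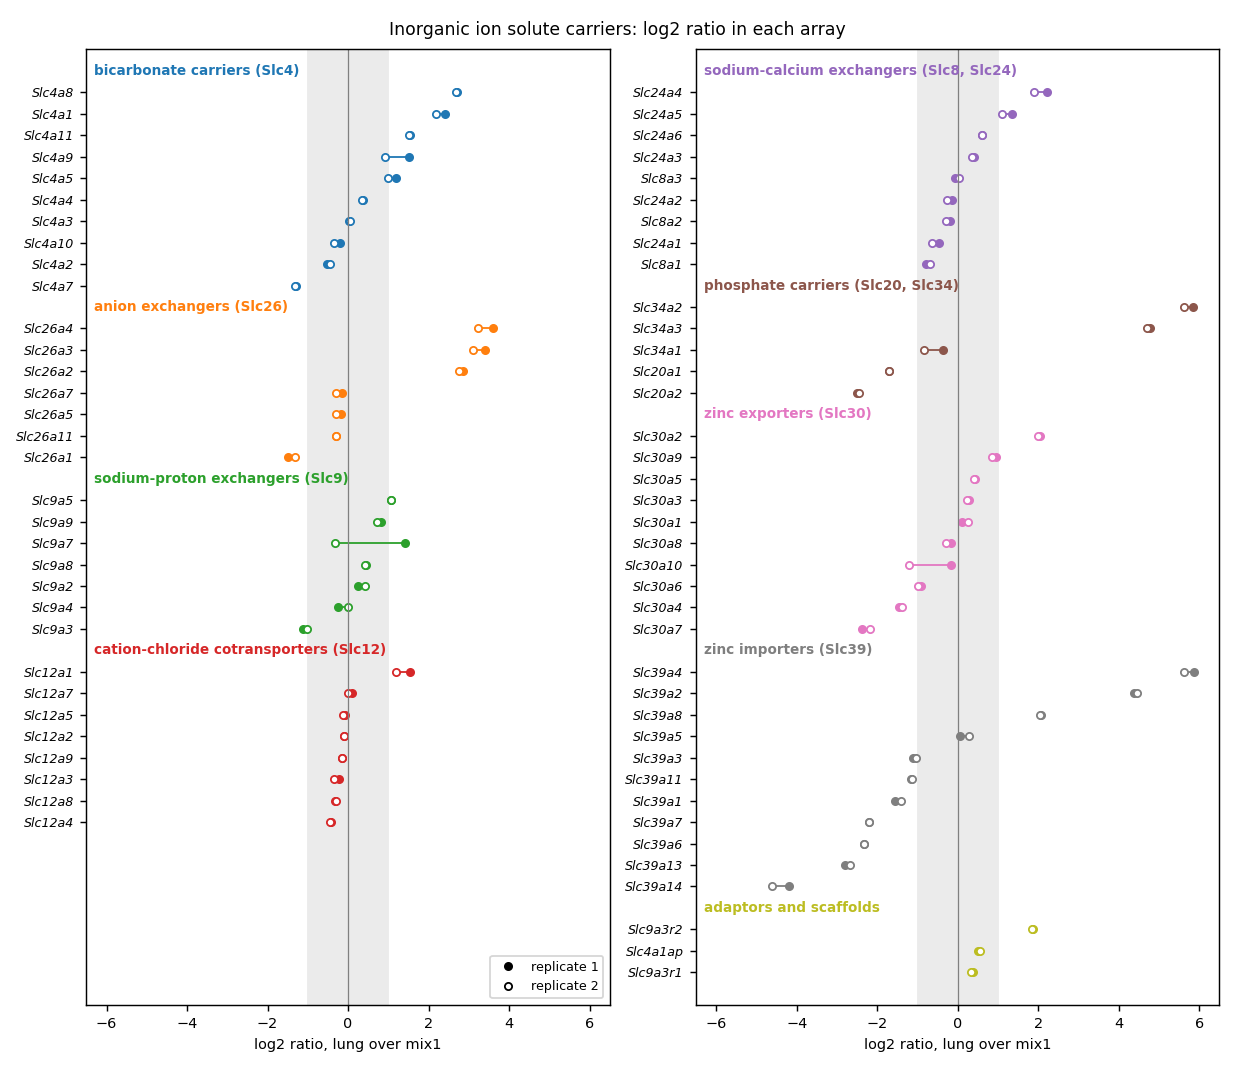
Log2 ratio of lung over mix1 (x axis) for each of the 70 members (y axis), grouped by transport family, with replicate 1 as filled and replicate 2 as open points and the band within 2-fold of 0 shaded. Slc34a2 and Slc39a4 lie farthest to the right and Slc39a14 farthest to the left, and only Slc9a7 and Slc8a3 have replicates on both sides of 0.

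The replicates lay close together for most members. The SD of a member between arrays had a median of 0.067 (log2), against 0.051 for all genes. An SD above 0.3 was found for 5 members: Slc4a9, Slc9a7, Slc34a1, Slc30a10 and Slc39a14. A cluster of members also shared nearly the same pair of values. The densest spot of all genes lay at -0.175 in replicate 1 and -0.275 in replicate 2, and 1145 genes (7.33%) lay within 0.1 of it in both arrays. Of the members, 7 (10%) did so: Slc4a10, Slc26a5, Slc26a7, Slc12a3, Slc24a2, Slc8a2 and Slc30a8. Limma called 5 of these 7 lower in lung (71.4%), at ratios from -0.29 to -0.23, against 956 of the 1145 genes there (83.5%), and none of the 5 passed with array medians subtracted. Scanner intensities were not used here, so it is not known which probes stood above background in either channel.

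**Figure D2:**
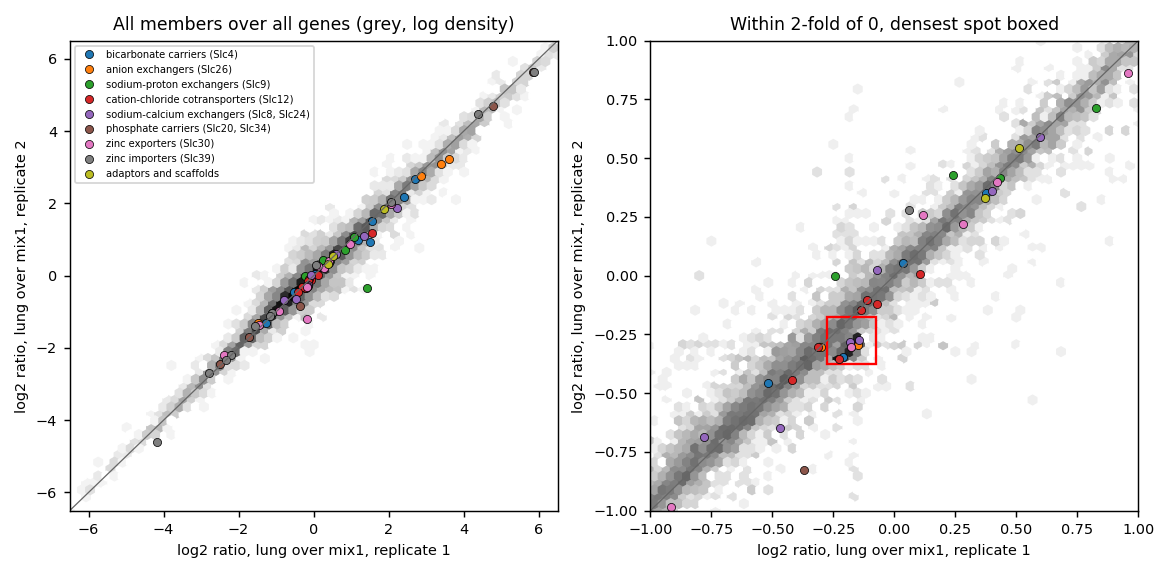
Log2 ratio of lung over mix1 in replicate 1 (x axis) against replicate 2 (y axis), for all genes as grey density on a log scale and for the members as points coloured by family; the right panel enlarges the range within 2-fold of 0. The red box marks the densest spot, which holds 1145 genes and 7 members, and Slc9a7 and Slc30a10 lie far from the diagonal.

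Phosphate carriers lay far to both sides of 0: Slc34a2 and Slc34a3 were higher in lung, both measured Slc20 genes were lower, and Slc34a1 lay below 0 without passing. Slc34a2, the sodium-phosphate cotransporter of alveolar type 2 cells, had ratios of 5.86 in replicate 1 and 5.63 in replicate 2. Its mean was 5.74 ± 0.16 (SD, n = 2), or 53.5-fold higher in lung (limma adjusted p 0.00118), which placed it 70th from the top of 15615 genes. This mean joins probes that differ widely: one lay at 8.54 and the other at 2.94, so the fold of the gene depends on the probe. Slc34a3, a cotransporter best known from the kidney, lay at 4.78 and 4.70, a mean of 4.74 ± 0.05 (26.7-fold; adjusted p 0.00117). Slc34a1, the main phosphate carrier of the renal proximal tubule, lay at -0.37 and -0.83 and did not pass (-0.60 ± 0.32; limma adjusted p 0.0573). Its probes lay at 0.07 and -1.27. Slc34a1 was called lower with array medians subtracted, at -0.38 (limma adjusted p 0.00607), and with its lower probe alone, at -1.27 (limma adjusted p 0.0481).

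Both measured carriers of the Slc20 family, which supply phosphate to most cell types and serve as retrovirus receptors, were lower in lung. Slc20a1 lay at -1.71 and -1.70, a mean of -1.71 ± 0.01 or 3.26-fold lower (adjusted p 0.00123), and its probes lay at -1.81 and -1.60. Slc20a2 lay at -2.50 and -2.46, a mean of -2.48 ± 0.03 or 5.57-fold lower (adjusted p 0.00117). In both arrays each Slc20 value was below each Slc34a2 and Slc34a3 value. The list of alveolar type 2 markers has 10 measured genes, but 4 of them helped to settle the sign and Slc34a2 is also among them. The other 5 (Lamp3, Napsa, Lpcat1, Abca3 and Etv5) were all higher beside Slc34a2, from 0.56 to 7.11 with a median of 1.97. Their part in the ratio of Slc34a2 was not tested.

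Other genes of phosphate balance were divided. Of 11 measured, 3 were higher and 6 lower, against 32.9% and 49.8% of all genes, with a median of -0.25. Subtracting array medians gave 4 and 5, against 40.6% and 38.0%. Alpl, the tissue-nonspecific alkaline phosphatase, lay at 4.72 ± 0.01 (SD, n = 2) and Phex, an endopeptidase whose loss causes phosphate wasting, at 3.75 ± 0.11. Lower genes included Ankh, a pyrophosphate transporter, at -1.87 ± 0.02 and Enpp1, which makes extracellular pyrophosphate, at -1.61 ± 0.01. Xpr1, the phosphate exporter, lay at 0.12 ± 0.01.

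Zinc importers held the widest range of the families, from -4.40 to 5.75. Of 11 measured Slc39 genes, 7 were lower in lung, 3 were higher and Slc39a5 did not pass. Over all genes the test called 49.8% lower and 32.9% higher. All 10 Slc39 genes that passed also met the 2-fold rule in both arrays, and their replicates never crossed 0. That rule held for 15.8% of all genes as lower and 16.5% as higher. The family median was -1.15. With array medians subtracted it was -0.93, with 3 higher and 5 lower by the 2-fold rule.

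Slc39a4, the importer of dietary zinc that is mutated in acrodermatitis enteropathica, and Slc34a2 had the highest means of the members, 0.0045 apart and so closer than their SDs. Slc39a4 was measured by a single probe, which lay below the higher probe of Slc34a2. Slc39a4 lay at 5.86 and 5.63, a mean of 5.75 ± 0.16 (SD, n = 2) or 53.6-fold higher in lung (limma adjusted p 0.00118). Slc39a2, a plasma membrane importer, lay at 4.38 and 4.46, a mean of 4.42 ± 0.06 (21.4-fold; adjusted p 0.00117). Slc39a8, which carries zinc, manganese and cadmium, lay at 2.06 and 2.03, a mean of 2.05 ± 0.02 (4.14-fold; adjusted p 0.00118). Its 3 probes did not lie together, with the lowest at 0.77 and the highest at 2.91. All values of these 3 genes were above 2 on the log2 scale when probes were averaged.

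Slc39a14, the close relative of Slc39a8 that also carries iron and manganese, had the lowest ratio of all members. It lay at -4.18 and -4.62, a mean of -4.40 ± 0.31 (SD, n = 2) or 21.1-fold lower in lung (limma adjusted p 0.00201). All 4 of its probes were low, from -5.26 to -3.42. Slc39a13, an importer of the secretory pathway that is needed for connective tissue development, lay at -2.80 and -2.69, a mean of -2.74 ± 0.08 (6.69-fold lower), with probes at -3.54 and -1.94. Slc39a6, a plasma membrane importer, lay at -2.34 and -2.33, a mean of -2.33 ± 0.0018 (5.04-fold lower). Slc39a7, which releases zinc from the endoplasmic reticulum and Golgi, lay at -2.20 and -2.21, a mean of -2.20 ± 0.01 (4.60-fold lower). The widely expressed importers Slc39a1 and Slc39a3 were nearer to 0. Slc39a1 lay at -1.55 and -1.40 (-1.48 ± 0.11) and Slc39a3 at -1.11 and -1.03 (-1.07 ± 0.06). Slc39a11 lay at -1.17 and -1.13 (-1.15 ± 0.03), with probes at -1.87 and -0.43, so only the lower probe was past 2-fold. The fibroblast marker list, lower in all 10 genes, moved with this group, and its part in these ratios was not tested.

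Zinc exporters were less spread than the importers. Of 10 Slc30 genes, 4 were higher and 4 lower, against 32.9% and 49.8% of all genes, with a median of -0.03. Subtracting array medians gave 5 and 4, against 40.6% and 38.0%, and a median of 0.20. Slc30a2, which loads zinc into secretory vesicles, lay at 2.05 and 1.98, a mean of 2.02 ± 0.05 (SD, n = 2) or 4.05-fold higher (limma adjusted p 0.00127). Its probes, matched to different transcript accessions, lay at 3.13 and 0.91. Slc30a7, a zinc carrier of the Golgi, lay at -2.38 and -2.19, a mean of -2.28 ± 0.13 or 4.87-fold lower (adjusted p 0.00180). Slc30a4, a vesicular exporter, lay at -1.46 and -1.38, a mean of -1.42 ± 0.06 or 2.67-fold lower (adjusted p 0.00169).

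The other exporters stayed within 2-fold of 0 in the mean. Slc30a5 and Slc30a6, which form one complex in the early secretory pathway, lay on opposite sides of 0, at 0.41 ± 0.01 (SD, n = 2) and -0.95 ± 0.05, and both passed the test. Slc30a9 was higher at 0.91 ± 0.07 and Slc30a3, known from synaptic vesicles, at 0.25 ± 0.04. Slc30a1, the exporter at the plasma membrane, lay at 0.12 and 0.26 and did not pass (0.19 ± 0.10; limma adjusted p 0.0750). Slc30a10, a manganese exporter, lay at -0.17 in replicate 1 and -1.21 in replicate 2 and did not pass either.

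Of the 6 measured metallothionein and zinc-responsive genes, 2 passed as higher and 3 as lower, against 32.9% and 49.8% of all genes. The list median was -0.25. The only metallothionein among them was Mt3, because Mt1, Mt1m, Mt2, Mt2A and Mt4 were not matched to a named gene. The list therefore does not measure a response to zinc. Mt3, a zinc-binding metallothionein best known from brain, lay at -2.85 ± 0.21 (SD, n = 2) and Slc11a2, an importer of iron and other divalent metals, at -1.004 ± 0.008. Tmem163, a vesicular zinc transporter, lay at 2.00 ± 0.12. Mtf1, the transcription factor that senses zinc, lay at -0.20 ± 0.09 and did not pass (limma adjusted p 0.0529).

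The promoter windows of the members are shown to describe the letters just before the gene start in the members 2-fold higher and those 2-fold lower, which were given no test. RefSeq windows of 250 bases before the start were found for 56 of the 70 members. They covered 9 of the 14 members 2-fold lower and 13 of the 17 members 2-fold higher. Slc39a4 and Slc39a14, the highest and lowest members, had no window. The windows were searched on both strands, with overlapping matches allowed, for 3 motifs. The GC box, a site of general activators such as Sp1, was spelled GGGCGG. For the TATA box, which positions the start of transcription, the letters were TATAAA. The metal response element, through which the zinc sensor Mtf1 acts, counted in either of its forms. One form was TGCACNC. Its other form was TGCGCNC. The sequences below belong to the 2 highest and the 2 lowest members with a window. Capitals mark the motif matches.
Slc34a2, GRCr8, chr14:62143073-62143322, minus strand: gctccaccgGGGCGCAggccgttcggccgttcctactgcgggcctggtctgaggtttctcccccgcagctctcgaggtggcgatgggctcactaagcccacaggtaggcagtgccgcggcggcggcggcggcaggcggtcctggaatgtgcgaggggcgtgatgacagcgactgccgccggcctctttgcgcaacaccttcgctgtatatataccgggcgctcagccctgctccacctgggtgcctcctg
Slc34a3, GRCr8, chr3:28447998-28448247, minus strand: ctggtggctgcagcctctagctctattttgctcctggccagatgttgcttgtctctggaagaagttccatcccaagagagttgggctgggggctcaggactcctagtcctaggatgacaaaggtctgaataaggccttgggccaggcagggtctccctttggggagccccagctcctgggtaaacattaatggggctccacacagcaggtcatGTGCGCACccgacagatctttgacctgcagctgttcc
Slc39a13, GRCr8, chr3:97503045-97503294, minus strand: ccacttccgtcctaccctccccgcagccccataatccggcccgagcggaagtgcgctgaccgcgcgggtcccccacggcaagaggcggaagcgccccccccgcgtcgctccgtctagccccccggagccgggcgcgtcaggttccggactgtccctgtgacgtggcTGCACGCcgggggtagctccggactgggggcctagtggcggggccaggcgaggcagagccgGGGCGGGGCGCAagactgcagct
Slc39a6, GRCr8, chr18:16160164-16160413, minus strand: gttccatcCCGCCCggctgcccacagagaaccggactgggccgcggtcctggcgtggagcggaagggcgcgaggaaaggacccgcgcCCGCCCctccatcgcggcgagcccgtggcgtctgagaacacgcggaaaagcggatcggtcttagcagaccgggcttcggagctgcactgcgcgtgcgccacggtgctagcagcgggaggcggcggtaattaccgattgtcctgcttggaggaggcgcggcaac

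The windows of Slc34a2 and Slc34a3 held metal response element letters and no GC box. Those of Slc39a13 and Slc39a6 each held a GC box, and in Slc39a13 one overlaps a metal response element. Over the members, a GC box was found in 8 of 9 windows of the 2-fold lower genes (88.9%), in 3 of 13 of the 2-fold higher genes (23.1%) and in 17 of 34 of the rest. Among all 27457 windows the share was 32.4%. Metal response element letters were found in 6 of 9 lower genes (66.7%), 4 of 13 higher genes (30.8%) and 11 of 34 of the rest (32.4%). Among all windows the share was 21.2%. A TATA box was found in 0 of 9 lower genes, in 1 of 13 higher genes, in 5 of 34 of the rest and in 13.1% of all windows.

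Among the members, the median GC content did not follow the order of the GC box shares, while the median number of CpG dinucleotides did. The median GC content was 66.8% in the lower genes, 65.6% in the higher genes, 61.2% in the rest and 52.0% in all windows. The median number of CpG dinucleotides was 23 in the lower genes, 15 in the higher genes, 16 in the rest and 6 in all windows. By family, all 7 zinc exporter windows and 7 of 9 zinc importer windows held a GC box, against 1 of 7 bicarbonate carriers. Of the 9 lower genes with a window, 7 were zinc carriers, so the shares by direction and by family are not separate. These shares were given no test, and a match is a run of letters that says nothing of binding.

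**Figure D3:**
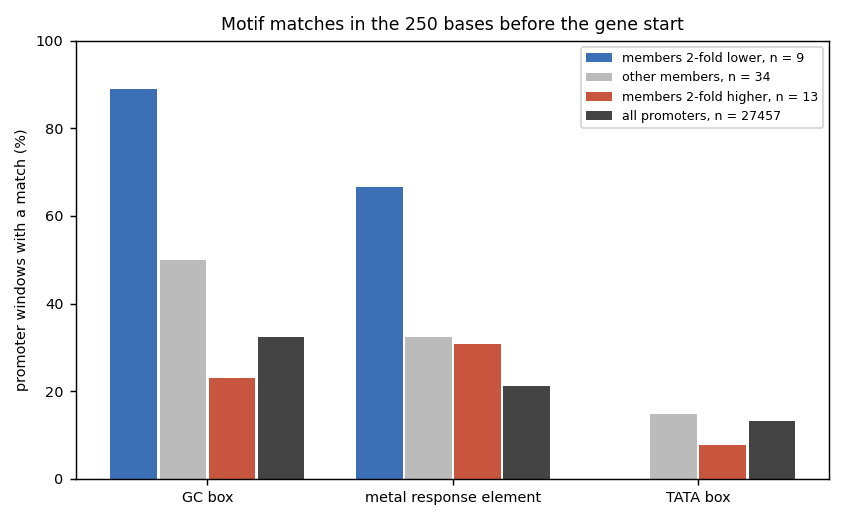
Share of promoter windows with a motif match (y axis, percent) for the GC box, the metal response element and the TATA box (x axis), with bars for members 2-fold lower (n = 9), other members (n = 34), members 2-fold higher (n = 13) and all RefSeq windows (n = 27457). The GC box bar stands at 88.9% for the lower members and at 23.1% for the higher ones.

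Of 10 genes of the Slc4 family, grouped by symbol as bicarbonate carriers, the test called 6 higher in lung and 3 lower. Over all genes it called 32.9% higher and 49.8% lower. The 2-fold rule held for 3 of the 10 as higher and 1 as lower, against 16.5% and 15.8% of all genes. The family median was 0.73. With array medians subtracted the test called 7 higher and 2 lower, against 40.6% and 38.0%, and the median was 0.95. Slc4a8, a sodium-driven chloride-bicarbonate exchanger, lay at 2.70 and 2.68, a mean of 2.69 ± 0.02 (SD, n = 2) or 6.44-fold higher (limma adjusted p 0.00117). Slc4a1, the band 3 anion exchanger of red cells, lay at 2.40 and 2.19, a mean of 2.30 ± 0.15 or 4.91-fold higher (adjusted p 0.00205). Its probes lay at 3.39 and 1.20. Slc4a11, known from the corneal endothelium, lay at 1.54 and 1.52, a mean of 1.53 ± 0.02 (adjusted p 0.00134).

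Of 8 measured erythroid markers, 7 were higher and Ermap was lower, against 32.9% and 49.8% of all genes. Their ratios ran from -0.74 to 4.58, with a median of 2.88. Epb42, a red cell membrane protein that binds band 3, lay at 4.58 ± 0.19 (SD, n = 2) and Hbb, beta globin, at 3.94 ± 0.07. The part of red cells in the ratio of Slc4a1 was not tested.

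The other Slc4 genes were nearer to 0. Slc4a5 and Slc4a9 had means of 1.09 ± 0.14 and 1.22 ± 0.41 (SD, n = 2), but replicate 2 lay just under 1 in both, at 0.99 and 0.93. Slc4a4, the electrogenic sodium-bicarbonate cotransporter, was higher at 0.36 ± 0.02. Slc4a7, a sodium-bicarbonate cotransporter, was the one member of the family that met the 2-fold rule as lower, at -1.28 and -1.32, a mean of -1.30 ± 0.03 (2.47-fold; limma adjusted p 0.00152). The chloride-bicarbonate exchanger Slc4a2 was lower at -0.49 ± 0.04, and Slc4a3 at 0.04 ± 0.01 did not pass. The adaptor Slc4a1ap lay at 0.53 ± 0.02.

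Carbonic anhydrases, which make and consume bicarbonate, were divided. Of 13 measured, 6 were higher and 4 lower, against 32.9% and 49.8% of all genes, with a median of 0.16. Subtracting array medians gave 8 and 4, against 40.6% and 38.0%. Car4, a membrane-anchored enzyme of lung capillaries, lay at 5.04 ± 0.18 (SD, n = 2) and Ca2, a cytosolic enzyme also abundant in red cells, at 4.62 ± 0.10. Car8, a family member without catalytic activity, lay at 5.17 ± 0.52 and Car6, a secreted form, at 1.67 ± 0.08. Car9, induced by hypoxia in many cells, lay at -1.25 ± 0.19 and Car13 at -1.17 ± 0.17.

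Anion exchangers of the Slc26 family fell into separate ranges. Slc26a4 (pendrin), a chloride, iodide and bicarbonate exchanger, lay at 3.60 and 3.22, a mean of 3.41 ± 0.27 (SD, n = 2) or 10.6-fold higher in lung (limma adjusted p 0.00230). Slc26a3, a chloride-bicarbonate exchanger best known from the colon, lay at 3.40 and 3.10, a mean of 3.25 ± 0.22 (9.52-fold; adjusted p 0.00197). Slc26a2, the sulfate carrier needed for cartilage proteoglycans, lay at 2.85 and 2.76, a mean of 2.80 ± 0.07 (6.98-fold; adjusted p 0.00118). These 3 genes were the ones called higher among the 7 measured, against 32.9% of all genes. Slc26a1, a sulfate carrier of liver and kidney, lay at -1.48 and -1.31, a mean of -1.40 ± 0.12 (2.64-fold lower; adjusted p 0.00293). Between them, Slc26a5, Slc26a7 and Slc26a11 lay from -0.30 to -0.22, near the median gene, and none passed with array medians subtracted.

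Sodium-proton exchangers showed small ratios. The test called 4 of 7 Slc9 genes higher and 1 lower, against 32.9% and 49.8% of all genes, and their median was 0.43. Slc9a5 lay at 1.07 and 1.06, a mean of 1.07 ± 0.01 (SD, n = 2; limma adjusted p 0.00168), and Slc9a3, the exchanger of the epithelial brush border, at -1.11 and -1.02, a mean of -1.07 ± 0.06 (adjusted p 0.00234). Slc9a7, an exchanger of the trans-Golgi network, lay at 1.42 in replicate 1 and -0.33 in replicate 2, the largest gap between replicates of any member, and did not pass. Slc9a9, an endosomal exchanger, was called higher at 0.77 ± 0.08, although its 3 probes ran from -1.15 to 1.94 and its highest and lowest probes were each past 2-fold, on opposite sides. Slc9a8 and Slc9a2 were higher at 0.43 ± 0.01 and 0.33 ± 0.13, with the probes of Slc9a8 at -0.04 and 0.89.

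The scaffold genes that link Slc9a3 to the cytoskeleton were higher. Slc9a3r2 lay at 1.87 and 1.85, a mean of 1.86 ± 0.02 (SD, n = 2) or 3.63-fold (limma adjusted p 0.00121), and Slc9a3r1 at 0.35 ± 0.03. Of 11 other binding partners measured, 7 were higher and 3 lower, against 32.9% and 49.8% of all genes, with a median of 0.94. Subtracting array medians gave 8 and 1, against 40.6% and 38.0%. Tesc, tescalcin, a calcium-binding partner of sodium-proton exchangers, lay at 5.27 ± 0.02. Ezr, the membrane-cytoskeleton linker ezrin, lay at 1.91 ± 0.04 and Pdzd3, a further scaffold of this kind, at 1.89 ± 0.19. Gnb2l1, the scaffold RACK1, lay at -0.77 ± 0.0045.

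Cation-chloride cotransporters varied least of the carrier families when probes were averaged, with 7 of 8 Slc12 genes between -0.43 and 0.06. Slc12a1, the sodium-potassium-chloride cotransporter of the kidney's thick ascending limb, was the exception at 1.55 and 1.19, a mean of 1.37 ± 0.25 (SD, n = 2; limma adjusted p 0.00811). Slc12a2, the widely expressed form that loads chloride into secretory epithelia, lay at -0.11 ± 0.01 and did not pass (adjusted p 0.0629). Slc12a4, a potassium-chloride cotransporter, was lower at -0.43 ± 0.02. The averages of Slc12a5 and Slc12a7 near 0 join probes on both sides of 0, from -1.08 to 0.89 and from -0.65 to 0.80. Slc12a3, Slc12a8 and Slc12a9 were called lower at -0.29, -0.31 and -0.14, and none passed with array medians subtracted, where Slc12a9 lay at 0.08.

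The listed regulators of these cotransporters, which include kinases, scaffolds and a ubiquitin ligase, were more spread than the cotransporters. Of 10 regulators measured, 5 were higher and 4 lower, against 32.9% and 49.8% of all genes. Subtracting array medians gave 5 and 2, against 40.6% and 38.0%. Wnk4 lay at 2.21 ± 0.11 (SD, n = 2) and Wnk3, a kinase of the same family, at -2.57 ± 0.16. Nedd4l, a ubiquitin ligase that limits sodium channels and transporters, lay at 1.93 ± 0.03 and Cab39, a scaffold of the downstream kinases, at 1.50 ± 0.07. Those downstream kinases, Stk39 and Oxsr1, were higher at 0.39 ± 0.11 and 0.60 ± 0.05.

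Sodium-calcium exchangers were higher for 4 and lower for 3 of 9 genes, against 32.9% and 49.8% of all genes. Subtracting array medians gave 4 and 2, against 40.6% and 38.0%. Slc24a4, which exchanges sodium for calcium and potassium, lay at 2.22 and 1.88, a mean of 2.05 ± 0.24 (SD, n = 2) or 4.15-fold higher (limma adjusted p 0.00391). Slc24a5, known from melanosomes, lay at 1.35 and 1.10, a mean of 1.22 ± 0.18 (adjusted p 0.00591). The mitochondrial exchanger Slc24a6 was higher at 0.59 ± 0.01. Slc8a1, the main exchanger of cardiac muscle, was lower at -0.73 ± 0.07, with 4 probes from -1.71 to 0.20. Of the 7 measured smooth muscle and cardiac markers, 5 were higher and 1 lower, from -3.29 for Cnn1 to 4.43 for Tnni3. The higher ones were Tnni3, Myh6, Myl7 and Tnnt2, from 3.10 to 4.43, and Des at 2.04, while Myh11 did not pass. The part of these markers in the ratio of Slc8a1 was not tested. Slc24a1, known from rod photoreceptors, was lower at -0.56 ± 0.13, and Slc8a3 at -0.02 ± 0.07 did not pass.

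Calcium pumps, which use ATP to move calcium out of the cytosol, were higher for 6 of 9 and lower for 3, with a median of 1.03. The shares of all genes were 32.9% and 49.8%. Subtracting array medians gave 6 and 2, against 40.6% and 38.0%. The list also held their small regulators: Sln (sarcolipin) was higher at 0.95 ± 0.28 (SD, n = 2), and Pln (phospholamban), at 0.68 ± 0.37, did not pass. Over all 11 genes, 7 were higher and 3 lower (8 and 2 with array medians subtracted), with a median of 0.96. Atp2c2, a pump of the secretory pathway, lay at 2.62 ± 0.21, and the plasma membrane pump Atp2b3 at 1.87 ± 0.12. Among the pumps of the endoplasmic reticulum, Atp2a3, known from blood and endothelial cells, lay at 1.75 ± 0.12 and the widely expressed Atp2a2 at -1.27 ± 0.03.

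**Figure D4:**
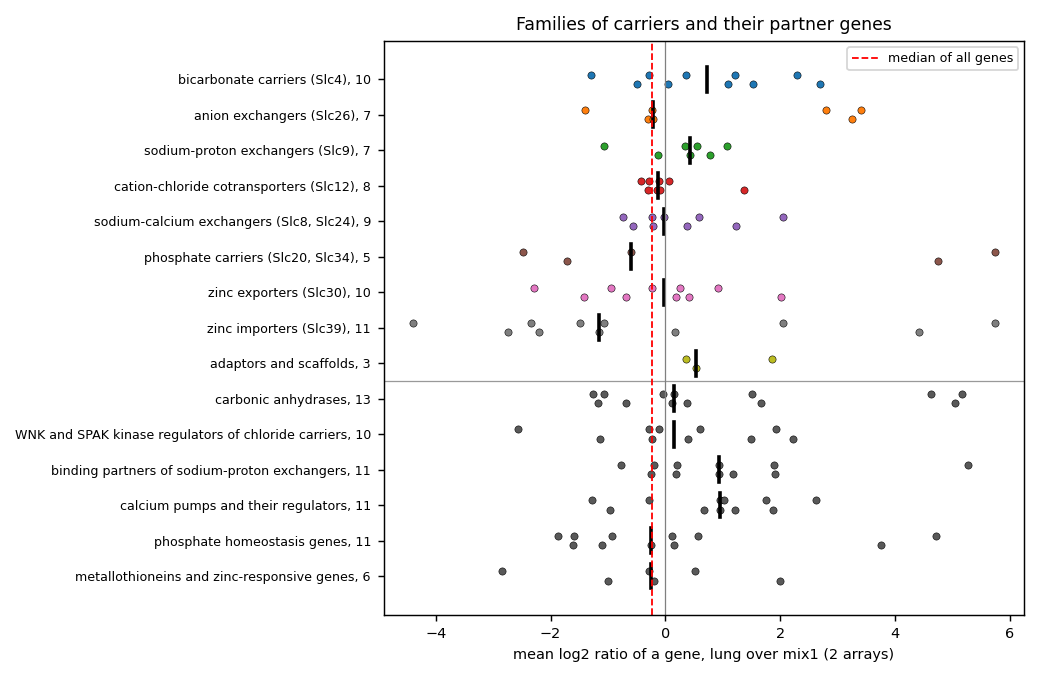
Mean log2 ratio of lung over mix1 over 2 arrays (x axis) for the genes of each carrier family (top, coloured points) and each list of partner genes (bottom, grey points), with the number of genes after each name, black bars for medians and a dashed line for the median of all genes, -0.23. Zinc importers reach both ends of the axis, phosphate carriers run from -2.48 to 5.74, and 7 of the 8 cation-chloride cotransporters sit near 0.

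Probes of one member often disagreed, beyond the difference between arrays. Of the 19 members with several probes, 14 (73.7%) had probes at least 2-fold apart in their means, against 36.8% of 3766 genes with several probes. The probes lay on both sides of 0 in both arrays for 8 of the 19 members (42.1%), against 27.1% of those genes. The widest gaps belonged to Slc34a2, at 5.59 on the log2 scale, Slc9a9 at 3.08 and Slc24a3 at 2.70. Slc24a3 was called higher at 0.38 ± 0.03 (SD, n = 2), a mean of probes at 1.73 and -0.97. Slc12a5 and Slc12a7, with probes from -1.08 to 0.89 and from -0.65 to 0.80, had averages near 0. The SDs given here cover the arrays and not the probes.

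**Figure D5:**
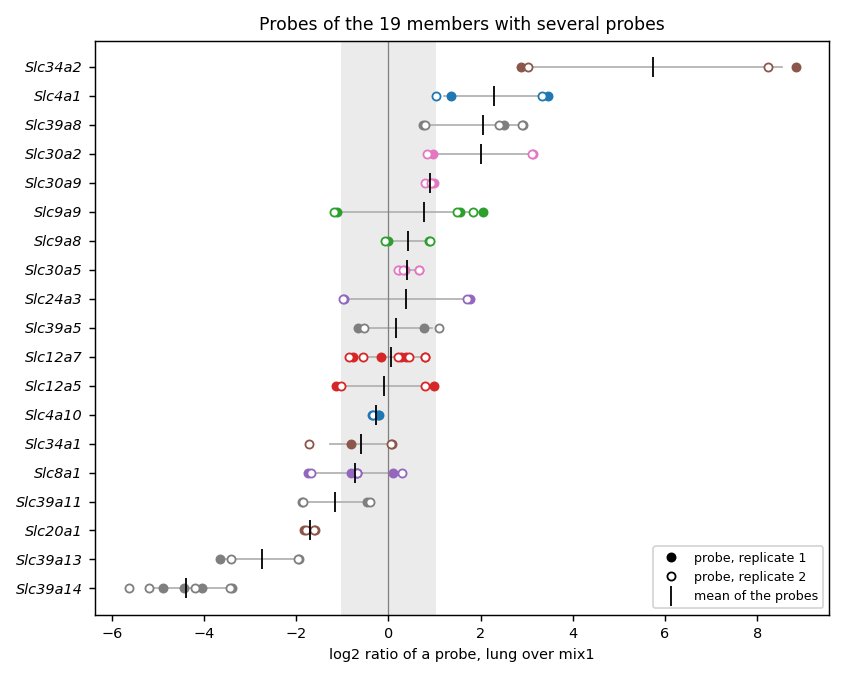
Log2 ratio of lung over mix1 (x axis) of each probe of the 19 members with several probes (y axis), with replicate 1 as filled and replicate 2 as open points, a grey line from the lowest to the highest probe mean and a black tick for the mean of the probes. The probes of Slc34a2 lie at 2.94 and 8.54, and the 4 probes of Slc39a14 run from -5.26 to -3.42.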

How the data were processed

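The authors' deposited table holds 1 log2 ratio per probe and array for the 2 lung samples, and these values were used as they stand. The log base is not stated. Base 2 was taken, because the range from -11.74 to 9.09 is too wide for base-10 ratios of a scanner, and every fold rests on it. Agilent Feature Extraction was used, per the submitters' processing notes. For its version, background correction, dye normalization and centring: not given in the sources used here. The probe medians are -0.16 and -0.21 in replicates 1 and 2. The number of arrays limits the precision.

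GEO's platform annotation names 20417 of 40012 probes, each with 1 symbol, and 19595 are unnamed here. Probes were averaged per symbol (15615 genes). The test against 0 was limma's (version 3.58.1, under R 4.3.3), an intercept fit moderated by eBayes with Benjamini-Hochberg adjustment over all genes and a threshold of 0.05, with 1 residual and 1.28 prior degrees of freedom, and the fit was tested on simulated data. Lists are described by counts and medians. Both arrays' values are given for members at least 2-fold from 0 in both arrays, and other members by mean or range. Slc34a1, Slc30a1, Slc30a10 and Slc9a7, which did not pass, are also given by array. From each list of partner genes up to 4 called genes farthest from 0 were named, with up to 2 in the other direction. Mtf1, Xpr1, Stk39, Oxsr1, Pln and Sln were named for their roles after their values were seen. Members and lists were chosen with earlier results of these data known. Symbols were updated through the RefSeq gene table of GRCr8, and promoter windows came from RefSeq (GRCr8). The motifs were chosen after the ratios were seen.

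Alternatives were robust eBayes, treat, scaling between arrays, array medians subtracted, an adjusted p under 0.01, the median probe, single probes, updated symbols, carriers alone and leaving out each array. Those chosen after seeing the data left out genes with probes on both sides of 0, or members near the densest spot.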

Additional observations from a re-analysis of the deposited data

How the results depend on the processing

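The counts of members higher and lower in lung by limma (30 and 27) and by the 2-fold rule (17 and 14) stayed within 1.5 times under every alternative run but limma's treat against a 2-fold change, where 14 were higher and 11 lower, as its stricter null requires. The median ratio of the members, 0.01, has no stable sign: it was 0.23 with array medians subtracted, -0.12 with the median probe, -0.095 with updated symbols and with carriers alone, -0.066 without genes whose probes lie on both sides of 0 and 0.19 without members near the densest spot. Leaving out 1 array gave medians from -0.018 to 0.0033, 17 to 20 members 2-fold higher and 14 to 15 lower, with no test because no residual degree of freedom is left. Members called as deposited or in the alternative changed direction with array medians subtracted (Slc12a9, 0.078) and with the median probe, which is the lower probe of a pair (Slc9a8, -0.037, Slc24a3, -0.97, and Slc39a5, -0.59). Another 5 members, called in neither setting, also crossed 0 with array medians subtracted, to values from 0.012 to 0.20: Slc9a4, Slc12a5, Slc12a2, Slc8a3 and Slc24a2. With the median probe Slc34a2 lay at 2.94 and Slc39a13 at -3.54. Subtracting array medians also changed the spread that limma borrows across genes (9.21 prior degrees of freedom in place of 1.28), and besides Slc12a9 it ended 7 calls and added 7. Scaling between arrays and robust eBayes changed no member's call, and an adjusted p under 0.01 ended 10 calls. Values of members were not recomputed for single probes, which are given in the text. No paired analysis was possible because there is only 1 group of samples. Signal over background was not used here and its limits are unknown.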
